A study of Mus musculus with 2 samples.

Results

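The 8 genes described here, Atp6v0d2, Acp5, Tnfrsf11a, Nfatc1, Dcstamp, Ocstamp, Oscar and Calcr, are among 55536 annotated genes. Osteoclasts use them to form, to fuse and to resorb bone, except Calcr, the receptor through which calcitonin stops resorption. The 8 genes were picked by name, though with earlier results of these data known. Their rows were found by gene symbol and joined by gene identifier. RNA abundance was measured in macrophages grown from the bone marrow of C57BL/6J mice and given lipid A, the Toll-like receptor 4 ligand within bacterial lipopolysaccharide, at 100 ng/ml for 75 minutes. RNA was taken from the cytosolic fraction and depleted of ribosomal RNA, with 1 µg as the starting amount. The series held 2 libraries of this 1 group, numbered as biological replicates, both with the same donor identifier and with sex and age not collected. Whether they stem from different mice or dishes is not stated, so the spread between them may be technical. Unstimulated cells, other times, other fractions and cells grown with RANKL were not analysed here, so each level belongs to the lipid A condition and no effect of lipid A can be given.

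Osteoclasts and macrophages come from the same myeloid precursors. CSF1 keeps these precursors alive, and RANKL, made by osteoblasts, osteocytes and T cells, binds the receptor RANK and directs them to become osteoclasts. RANK signals through TRAF6 to NF-kB and AP-1, while receptors that pair with the adaptors DAP12 and FcRγ raise calcium, and both routes meet at NFATc1, the factor that switches on the genes for fusion, acid secretion and bone matrix breakdown. Marrow-derived macrophages grown in CSF1 are a common starting point for making osteoclasts in culture, and Toll-like receptor ligands are known to restrain that step in early precursors.

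The 8 genes fell into a set of 4 measured well above 1 TPM and a set of 4 near the detection limit. TPM is the deposited abundance per length of transcript, scaled to a fixed sum in each library, and detected here means 1 TPM or more on average over both libraries. Atp6v0d2, Tnfrsf11a, Acp5 and Nfatc1 were detected, and Dcstamp, Ocstamp, Oscar and Calcr were not. The same 4 passed in each library alone. Of all 22028 protein-coding genes, 39.3% passed that threshold. The median protein-coding gene stood at 0.1 TPM in replicate 1 and 0.110 TPM in replicate 2, and among genes that passed it stood at 6.04 and 6.21 TPM. All 4 detected genes were above the latter median in both libraries. Together the 8 genes took 21408 of 55596625 expected counts in replicate 1 and 23082 of 50157146 in replicate 2. Expected counts are estimated fragments per gene, and the intervals and floors given below from counts cover counting error only, since sequenced fragments are not independent molecules.

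**Figure D1:**
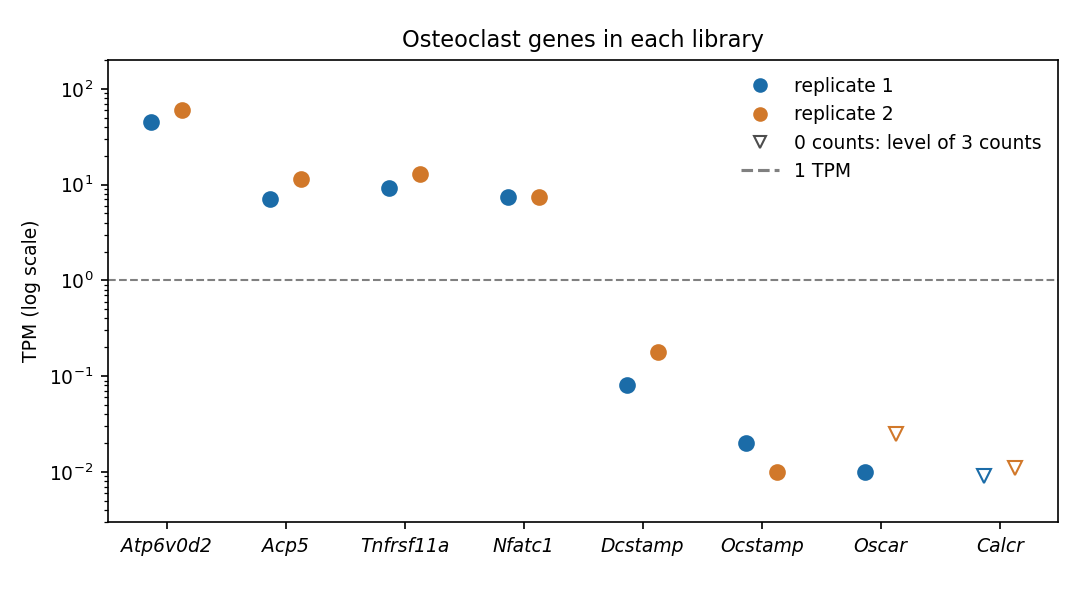
Level of each osteoclast gene in TPM (log axis) in replicate 1 and replicate 2; an open triangle marks a library with 0 counts, at the level that 3 counts would give, and the dashed line is 1 TPM. Atp6v0d2, Acp5, Tnfrsf11a and Nfatc1 lie above the line in both libraries, and the other members lie below 0.2 TPM.

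The TPM scale of both libraries was set largely by a pair of 7SL RNA genes, Rn7s1 and Rn7s2, which held 69.8% of all TPM in replicate 1 and 60.5% in replicate 2, chosen for mention after their values were seen. Levels were therefore also rescaled over nuclear-encoded protein-coding genes alone, called the coding scale below, and ratios between libraries were taken from counts scaled by TMM. Macrophage identity was checked with 8 markers, and all 8 were detected, led by Lyz2 at 4227 and 4111 TPM, Cd68, Cd14 and Csf1r. None of 9 osteoblast and stromal markers reached 1 TPM, their summed level was 0.600 and 0.890 TPM, and 4 of them had 0 counts in both libraries. Most of that sum was Runx2, at 0.58 and 0.83 TPM from 304 and 333 counts, named after its values were seen. The 5 B and T cell markers summed to 0.01 and 0.12 TPM, and the 5 neutrophil markers to 27.5 and 27.0 TPM. Of the latter, 2 were detected, S100a9 at 17.1 and 17.4 TPM and S100a8 at 10.2 and 9.25 TPM, and Ly6g had 0 counts.

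Of 5 osteoclast markers other than the 8 genes, Ckb and Itgb3 were detected, while Ctsk, Mmp9 and Car2 were not. Ckb, a creatine kinase that supplies energy for acid secretion, stood at 30.8 ± 4.42 TPM (SD, n = 2). Itgb3, the β chain of the osteoclast adhesion receptor, stood at 3.13 ± 0.495 TPM (SD, n = 2). Ctsk encodes cathepsin K, the collagen-degrading protease of osteoclasts, and stood at 0.710 and 0.910 TPM. It had 106 and 115 counts, and it would pass a threshold of 0.5 TPM. Mmp9 and Car2 stood at 0.09 and 0.05 TPM in replicate 1 and at 0.21 and 0.18 TPM in replicate 2. The cells thus carried macrophage markers at high level, while the osteoclast markers were mixed. Ckb and Itgb3 lay above the threshold, Ctsk just below it, and Mmp9 and Car2 well below it. In a bulk culture, a low level of an osteoclast gene in every cell and a higher level in a few osteoclast-like cells cannot be told apart, nor can fewer cells of a type and less RNA per cell.

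Tnfrsf11a encodes RANK, the receptor for RANKL, and had the second highest mean level of the 8 genes, with a range that overlapped that of Acp5. Its gene, ENSMUSG00000026321.7, lies on the forward strand of mm10 at chr1:105780718-105847981. It had 4641 counts in replicate 1 and 5262 in replicate 2, and stood at 9.30 and 12.95 TPM (11.1 ± 2.58, SD, n = 2). That mean was higher than 87.2% of protein-coding genes. On the coding scale it stood at 43.1 and 59.3. After scaling, replicate 2 was 1.30-fold higher, with a 95% counting interval from 1.25 to 1.35, and 17.9% of measured protein-coding genes differed by more.

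Most of the Tnfrsf11a signal came from its only protein-coding transcript, Tnfrsf11a-201, which spans 10 exons and took 87.2% and 84.0% of the gene's TPM. The rest was assigned to a pair of transcripts annotated as retaining intron sequence. Tnfrsf11a-203 extends exon 4 by 609 bases into an intron of 3874 bases, at chr1:105813795-105814403, and took 12.6% and 13.7% of TPM from 111 and 142 counts. Tnfrsf11a-202 extends exon 8 by 349 bases at chr1:105825053-105825401 and took 0.260% and 2.34% from 1.11 and 11.6 counts. Together they took 12.8% and 16.0% of TPM. Both are short, so their joint share of the counts was smaller, at 2.42% and 2.92%. The second quantification gave 2.57% and 3.28% of counts. Both tables put the share higher in replicate 2.

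A higher share in replicate 2 was common among genes with such transcripts. Of 6936 protein-coding genes with an annotated retained-intron transcript and a mean count of at least 10, 63.6% had a higher share of TPM in it in replicate 2, and the median share of TPM was 0.749% in replicate 1 and 2.06% in replicate 2. The nuclear RNAs Malat1, Neat1 and Xist were also higher in replicate 2, between 4.06-fold and 4.76-fold after scaling, in libraries labelled as cytosolic. Their part in the Tnfrsf11a shares was not tested.

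Of 15 genes for RANK and CSF1 signalling, 11 were detected, with a list median of 7.92 and 7.58 TPM. Csf1r, the CSF1 receptor that induces Tnfrsf11a in precursors, stood at 174 ± 44.6 TPM (SD, n = 2). Csf1 itself stood at 46.6 ± 7.60, Tab2 at 25.1 ± 0.283 and Cbl at 21.6 ± 2.64 TPM (each SD, n = 2). Traf6, the adaptor through which RANK signals, stood at 4.82 and 4.93 TPM, below Tnfrsf11a in both libraries, and is named after its values were seen. Tnfsf11, which encodes RANKL, and Tnfrsf11b, which encodes its decoy receptor osteoprotegerin, had 0 counts in both libraries. Map2k6 and Lgr4, a second receptor for RANKL, stood at 0.640 and 0.0550 TPM on average.

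Nfatc1 encodes the calcium-regulated transcription factor that commits precursors to the osteoclast fate. Its gene, ENSMUSG00000033016.16, lies on the reverse strand at chr18:80606205-80713071. It had 3579 and 3012 counts and stood at 7.49 and 7.47 TPM (7.48 ± 0.0141, SD, n = 2), higher than 82.8% of protein-coding genes. On the coding scale the values were 34.7 and 34.2. The libraries differed least for Nfatc1 among the 5 with a mean count of at least 10, with a scaled ratio of 0.963 and a counting interval from 0.917 to 1.01, and 81.6% of measured genes differed by more. An antisense gene inside it, AC123818.1, had 1 count in each library.

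Nfatc1 can start at either of a pair of promoters and end at either of a pair of polyadenylation sites. The upstream promoter and the near end are known for the short isoform that rises when NFATc1 amplifies its own gene. In these libraries the downstream first exon led. The 3 transcripts that begin there, Nfatc1-201, Nfatc1-203 and Nfatc1-205, took 65.1% and 68.7% of the gene's TPM (66.9 ± 2.55, SD, n = 2). The 3 that begin upstream took 29.6% and 26.1% (27.9 ± 2.47, SD, n = 2). The second quantification gave 69.6% and 65.0% downstream and 30.4% and 35.0% upstream. Both tables therefore placed the larger share downstream in both libraries, and they differed on which library had more of it.

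By their ends, the Nfatc1 transcripts were split more evenly. The near end, used by Nfatc1-201 and Nfatc1-206, took 50.4% and 53.6% of TPM, and the far end of the other coding transcripts took 44.3% and 41.2%. In the second quantification the near end took 53.4% and 56.3%. Nfatc1-206, which joins the upstream first exon to the near end, took 21.7% and 26.1%, and in the second quantification 30.4% and 35.0%, where it was the leading transcript. In the first quantification Nfatc1-201 led, at 28.7% and 27.4%. The first quantification assigned 5.33% and 5.22% to Nfatc1-207, a short processed transcript near the far end, from 20.9 and 17.3 counts, and the second assigned it 0 counts.

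Among single Nfatc1 transcripts, Nfatc1-203 and Nfatc1-204 had the largest posterior SDs in both libraries. Nfatc1-205 was steadier, at 26.0% and 25.7% of TPM. Nfatc1-204 had 301 counts in replicate 1 and 0.0900 in replicate 2, with deposited posterior SDs of 122 and 88.4 counts, and the second quantification gave it 0.0608 counts in replicate 1. Nfatc1-203 had 397 and 499 counts, with posterior SDs of 134 and 103. The 6 coding transcripts hold 6 different coding chains of 2109 to 2817 bases, so they encode different proteins.

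**Figure D2:**
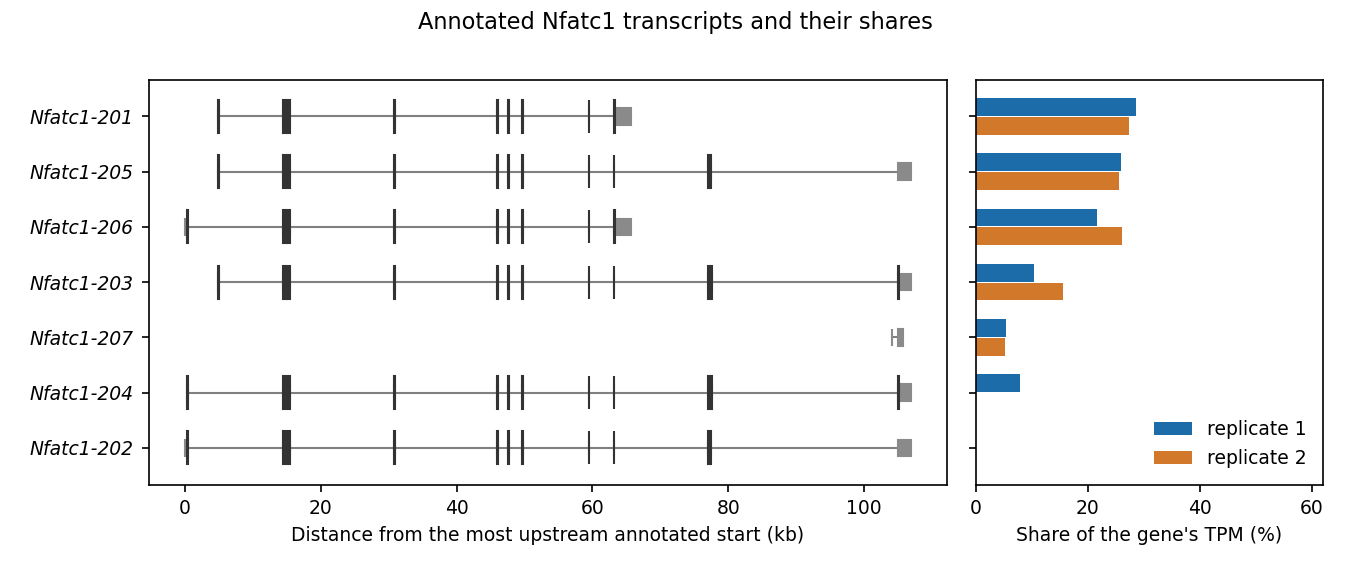
Left, annotated Nfatc1 transcripts against distance in kb from the most upstream start (thick boxes coding, thin boxes non-coding exon, lines introns); right, share of the gene's TPM in percent in each library. Nfatc1-201 and Nfatc1-205, which share the downstream first exon, took over 25% each in both libraries, and Nfatc1-204 had a visible share in replicate 1 alone.

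Nfatc1 was the most abundant NFAT gene. It held 31.4% and 30.6% of the summed TPM of the 5 NFAT genes (31.0 ± 0.539, SD, n = 2). Nfatc2 stood at 6.57 ± 0.149, Nfatc3 at 5.26 ± 0.290 and Nfat5 at 4.86 ± 0.530 TPM (each SD, n = 2), and their ranges lay below that of Nfatc1. Nfatc4 had 0 and 1 counts. Nfat5 responds to osmotic stress and, unlike the others, is not activated by calcineurin. In the second quantification Nfatc1 held 29.5% and 27.9% and was again the highest in each library, but at 3.48 and 2.68 TPM its range overlapped that of Nfatc2, at 2.997 and 2.44 TPM.

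The listed genes that feed calcium to NFATc1 were all detected, in a list that does not include Oscar. The list of ITAM and calcium signalling had 13 of 13 genes at 1 TPM or more and a median of 16.7 and 15.9 TPM. Tyrobp, which encodes DAP12, stood at 648 ± 12.1 TPM, Fcer1g, which encodes FcRγ, at 423 ± 9.20, the DAP12 partner Trem2 at 252 ± 44.6 and the kinase Syk at 78.3 ± 12.4 (each SD, n = 2). Among NFAT regulators, Rcan1, a calcineurin inhibitor whose gene is itself an NFAT target, led at 72.7 ± 9.36 TPM (SD, n = 2). The kinases Gsk3b and Dyrk1a, which drive NFAT out of the nucleus, followed at 17.1 ± 0.785 and 10.5 ± 0.431 TPM, with Homer3 at 9.18 ± 0.679 (each SD, n = 2). Homer2 had 0 and 1 counts.

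Transcription factors on both sides of the osteoclast decision were present beside Nfatc1. All 15 activators were detected, with a median of 33.0 and 32.1 TPM, led by Junb at 238 ± 30.1, Spi1 at 59.7 ± 3.22, Fos at 58.8 ± 0.778 and Nfkb1 at 38.8 ± 5.96 TPM (each SD, n = 2). Of 7 repressors 6 were detected, led by Id2 at 189 ± 6.12, Irf8 at 24.2 ± 0.375 and Rbpj at 23.0 ± 1.88 TPM (each SD, n = 2). Irf8 is known to hold down Nfatc1 in precursors, and it stood above Nfatc1 in both libraries. Any effect of Irf8 on Nfatc1 in these cells was not tested. Id1 stood at 0.185 TPM.

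Dcstamp and Ocstamp encode the membrane proteins that precursors need in order to fuse into multinucleated cells, and neither reached 1 TPM. Dcstamp, ENSMUSG00000022303.9, on the forward strand at chr15:39745930-39760938, had 17 and 18 counts. It stood at 0.0800 and 0.180 TPM (0.130 ± 0.0707, SD, n = 2), and the replicate ranges of Nfatc1 and Dcstamp did not overlap: Nfatc1 was 90.9-fold and 42.3-fold higher. The TPM of Dcstamp differed 2.25-fold between libraries although the counts were nearly equal. In replicate 2, 1 count went to Dcstamp-206, a transcript of 345 bases, which gave it 44.6% of the gene's TPM. That count lowered the gene's effective length from 1775 to 1043 bases, and the 42.3-fold above rests on that shorter length. By scaled counts the ratio was 1.21, with a counting interval from 0.589 to 2.50, so a difference between libraries was not detectable at this depth. The posterior mean TPM, a deposited estimate with a prior, was 0.220 and 0.340. For Nfatc1 it was 7.46 and 7.42, so the size of the fold depends on the estimate used.

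Ocstamp, ENSMUSG00000027670.4, on the reverse strand at chr2:165393760-165400405, has 1 annotated transcript. It had 6 and 4 counts and stood at 0.02 and 0.01 TPM in the first quantification, below Dcstamp there. The second quantification assigned it 18.2 and 64.1 counts, at 0.0211 and 0.0683 TPM, and gave Dcstamp 17 and 22.0 counts, at 0.0383 and 0.0682 TPM, so that the ranges overlapped. The level of Ocstamp is therefore known only to be far below 1 TPM, and no ratio is given for it.

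Most other fusion genes were detected in the same bulk libraries as the low fusion pair. Of 10 such genes 9 were detected, with a median of 28.8 and 36.5 TPM. Sirpa stood at 434 ± 85.9 and its ligand Cd47 at 56.9 ± 4.42 TPM, with the hyaluronan receptor Cd44 at 124 ± 22.0 and the protease Adam8 at 78.9 ± 24.7 (each SD, n = 2). Tspan7, a tetraspanin of the osteoclast cytoskeleton, stood at 0.135 ± 0.00707 TPM (SD, n = 2), close to Dcstamp.

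Atp6v0d2 was the most abundant of the 8 genes. It encodes the d2 subunit of the V0 domain of the V-ATPase, the proton pump with which osteoclasts acidify the bone surface and all cells acidify lysosomes. Its gene, ENSMUSG00000028238.6, lies on the reverse strand at chr4:19876841-19922605. It had 12233 and 13522 counts and stood at 45.5 and 59.7 TPM (52.59 ± 10.04, SD, n = 2), higher than 97.1% of protein-coding genes. It was 4.89-fold and 4.61-fold above Tnfrsf11a, the next in order, and the replicate ranges did not overlap. On the coding scale it stood at 211 and 273, and the second quantification gave 201 and 261 on that scale. Nearly all of it was the full-length transcript, Atp6v0d2-201, with 99.9% and 100.0% of TPM. The scaled ratio was 1.27 with a counting interval from 1.23 to 1.30, and 21.2% of measured genes differed by more.

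Atp6v0d2 and its paralog Atp6v0d1, which serves in most tissues, had similar RNA levels. Atp6v0d1 stood at 58.4 and 58.4 TPM (58.4 ± 0.0141, SD, n = 2). Atp6v0d2 was below it in replicate 1 and above it in replicate 2, with 43.8% and 50.6% of their sum (47.2 ± 4.77, SD, n = 2). The second quantification gave 42.7% and 49.3%, below Atp6v0d1 in both libraries, so which of the pair led was not settled by these libraries. Of 24 V-ATPase genes 18 were detected, with a median of 61.0 and 61.1 TPM, and Atp6v0d2, not itself counted in that list, lay below it in both libraries. The list was led by Atp6v0c at 460 ± 2.91, Atp6v1a at 128 ± 0.149, Atp6v0b at 102 ± 16.3 and Atp6v1b2 at 98.8 ± 8.31 TPM (each SD, n = 2), and 5 of its genes had 0 counts in both libraries.

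Acp5 encodes tartrate-resistant acid phosphatase, the enzyme stained to count osteoclasts, which macrophages also make. Its gene, ENSMUSG00000001348.15, lies on the reverse strand at chr9:22126727-22135711. It had 930 and 1264 counts and stood at 7.07 and 11.4 TPM (9.24 ± 3.06, SD, n = 2), higher than 85.1% of protein-coding genes. Its range overlapped those of Tnfrsf11a and Nfatc1, so its place beside them is not resolved by range. Within each library Tnfrsf11a lay above it, by 1.32-fold and 1.14-fold. Tnfrsf11a lay above Nfatc1 without overlap, by 1.24-fold and 1.73-fold. In the second quantification the 3 ranges did not overlap. There Tnfrsf11a stood at 4.89 and 5.33, Acp5 at 3.49 and 4.33 and Nfatc1 at 3.48 and 2.68 TPM. In the first quantification Acp5 was 0.944 of the level of Nfatc1 in replicate 1 and 1.53-fold above it in replicate 2. A gene on the opposite strand that spans Acp5, 6530413G14Rik, had 4 and 3 counts.

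The 5 coding transcripts of Acp5 share 1 coding chain of 981 bases and differ in the non-coding exons before it. An inner non-coding exon of Acp5-206 covers the first exon of Acp5-202, so reads there can come from either start. The shares therefore divide the gene by start only as the quantification assigned them. Acp5-201 and Acp5-206, which begin within 16 bases of each other, took 55.0% and 58.2% of the gene's TPM (56.6 ± 2.23, SD, n = 2). Acp5-202, which begins 1217 bases downstream of Acp5-201, took 44.4% and 40.6% (42.5 ± 2.70, SD, n = 2). The second quantification gave 57.3% and 61.2% for the first group and 41.5% and 35.3% for Acp5-202. Acp5-204, from a start between them, took 0.566% and 1.23%. Acp5-203, from the most upstream start, had 0 counts in both tables and both libraries, although its deposited posterior SDs were 50.2 and 32.1 counts. Those of Acp5-201 were 67.1 and 57.1 counts on 513 and 715. A small share of reads from the most upstream start is thus within the stated uncertainty.

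**Figure D3:**
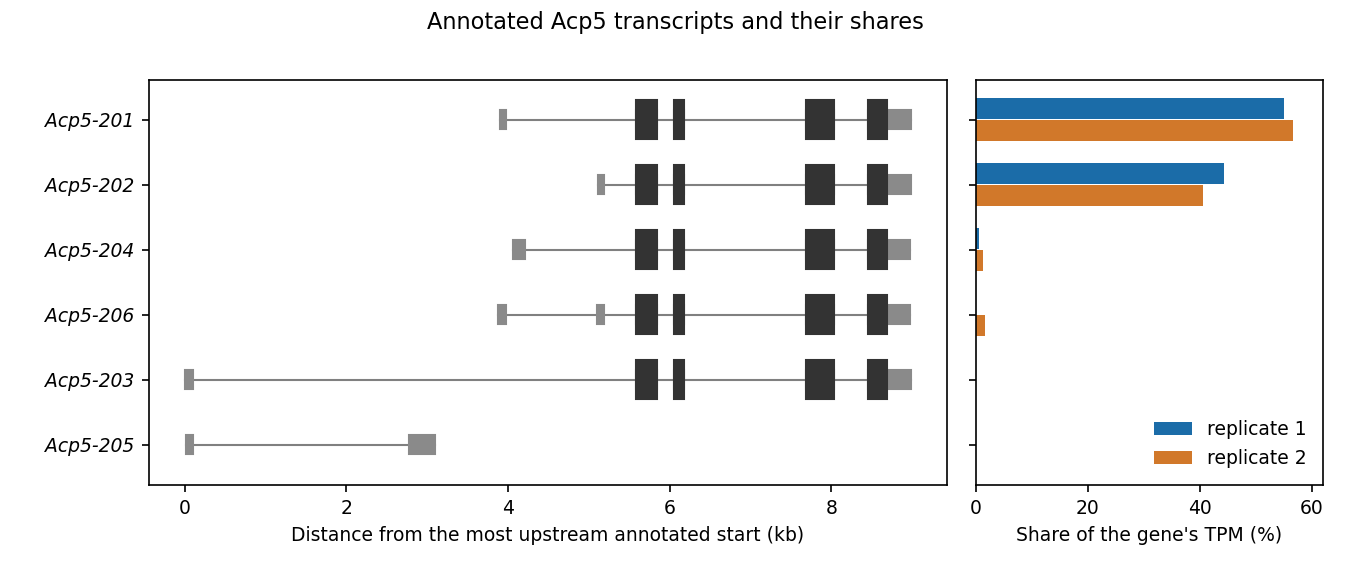
Left, annotated Acp5 transcripts against distance in kb from the most upstream start (thick boxes coding, thin boxes non-coding exon, lines introns); right, share of the gene's TPM in percent in each library. Acp5-201 and Acp5-202 differ in the first exon and took nearly all of the TPM in both libraries.

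The sequence before each RefSeq start of Acp5 is printed because the transcript shares were grouped by start, and that of Oscar, a gene near 0, is set beside them. Each runs 5′ to 3′ on the gene's own strand, from RefSeq on GRCm38.p6, up to 250 bases before the start with exonic bases of the gene left out. Capitals mark matches on either strand to TCATGTGA, the M-box of MITF and TFE3, to GGAAA, the core of NFAT sites, and to GAGGAA, a PU.1 core. TGANTCA, an AP-1 site, was also searched and was not found in these windows. The motifs were chosen after the sequences had been seen, and matches to GGAAA and GAGGAA can overlap.
Acp5 most upstream start, chr9:22135747-22135996, reverse strand: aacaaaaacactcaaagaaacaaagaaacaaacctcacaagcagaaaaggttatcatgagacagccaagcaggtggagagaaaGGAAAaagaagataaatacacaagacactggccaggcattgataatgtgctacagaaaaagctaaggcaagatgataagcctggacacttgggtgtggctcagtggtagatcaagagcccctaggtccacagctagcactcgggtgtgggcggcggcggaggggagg
Acp5 middle start, near Acp5-201 and Acp5-206, chr9:22131866-22132115, reverse strand: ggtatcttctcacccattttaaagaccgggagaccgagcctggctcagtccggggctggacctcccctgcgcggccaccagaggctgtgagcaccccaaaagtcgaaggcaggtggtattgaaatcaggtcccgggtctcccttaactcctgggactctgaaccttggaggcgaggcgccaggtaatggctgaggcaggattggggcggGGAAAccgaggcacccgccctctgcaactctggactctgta
Acp5 downstream start, Acp5-202, chr9:22130609-22130848, reverse strand: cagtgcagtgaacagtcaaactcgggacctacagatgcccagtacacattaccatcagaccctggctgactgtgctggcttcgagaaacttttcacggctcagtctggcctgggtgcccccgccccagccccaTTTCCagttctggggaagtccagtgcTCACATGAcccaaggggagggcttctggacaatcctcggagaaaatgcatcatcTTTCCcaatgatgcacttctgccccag
Oscar, chr7:3616158-3616407, reverse strand: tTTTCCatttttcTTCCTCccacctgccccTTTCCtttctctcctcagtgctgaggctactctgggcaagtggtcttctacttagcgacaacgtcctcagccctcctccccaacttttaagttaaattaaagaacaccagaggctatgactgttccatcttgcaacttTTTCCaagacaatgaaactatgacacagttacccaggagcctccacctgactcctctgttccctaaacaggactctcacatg

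MITF and PU.1 are known to act together on the Acp5 promoter. Of the 3 Acp5 windows, the downstream one held the M-box, on the other strand, 91 to 84 bases before the start of Acp5-202. Among 32536 distinct RefSeq windows of 250 bases before a start, 0.851% held that motif. The NFAT core was found 2 times in the downstream window and 1 time in each of the others, and 55.7% of all windows held it. The PU.1 core was found in none of the 3 Acp5 windows. The Oscar window held the NFAT core 3 times and the PU.1 core 1 time, the latter found in 23.4% of all windows. The windows of Tnfrsf11a and Calcr are also in the table, and those of Atp6v0d2, Dcstamp and Ocstamp are not. A match describes letters in the window and says nothing of binding. Mitf and Tfe3 themselves, named after their values were seen, stood at 9.67 ± 0.198 and 22.3 ± 2.03 TPM (each SD, n = 2).

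Acp5 was also the gene that differed most between libraries among the 5 with a mean count of at least 10. Replicate 2 was 1.56-fold higher by scaled counts, with a counting interval from 1.43 to 1.69. Among 11619 protein-coding genes averaging at least 10 counts, 8.15% differed over 1.5-fold in either direction, 621 of them higher in replicate 2 and 326 lower, and the median gene differed 1.12-fold. Of the 5 osteoclast genes, Acp5 alone passed 1.5-fold. In the second quantification it did not pass, at a ratio of 1.48.

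**Figure D4:**
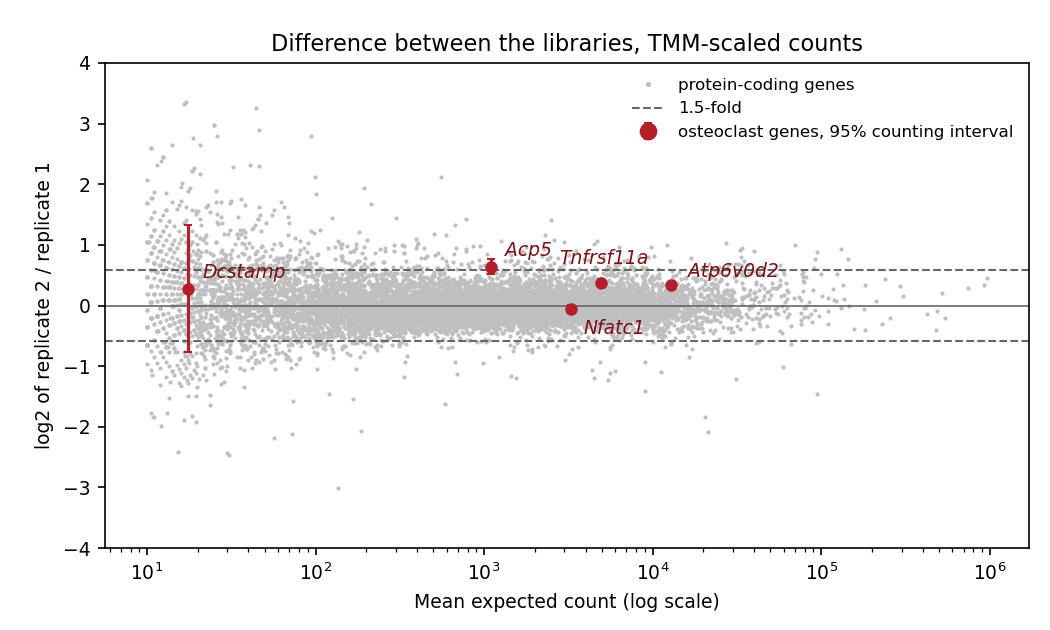
Ratio of replicate 2 to replicate 1 (log2 of TMM-scaled counts) against mean expected count (log axis) for 11619 protein-coding genes in grey, with osteoclast genes in red with 95% counting intervals; dashed lines mark 1.5-fold. Acp5 lies just above the upper line, Atp6v0d2 and Tnfrsf11a between 0 and that line, and the interval of Dcstamp spans 0.

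Several other groups of genes were higher in replicate 2 together with Acp5, Tnfrsf11a and Atp6v0d2. The 8 macrophage markers had a median ratio of 1.25, with summed levels of 5569 and 5762 TPM, and 1 of them passed 1.5-fold. The 13 bone resorption genes had a median ratio of 1.21. Of these, 4 passed 1.5-fold, beside 8.15% of all measured protein-coding genes, and all 4 were higher in replicate 2. They were Itgav at 1.502, Mmp14 at 2.24, Mmp9 at 2.52 and Car2 at 2.998, of which Mmp14 is named after its values were seen. Mmp9 had only 27 and 60 counts and Car2 only 10 and 27, and no counting interval is given for them. Of 4 dendritic cell markers 2 were detected, Itgax at 0.89 and 1.20 TPM and Ccr7 at 0.71 and 1.34 TPM. The 4 dendritic cell markers summed to 1.80 and 2.90 TPM and had a median ratio of 1.63. The ITAM list, at a median ratio of 0.937, and the NFAT list, at 1.00, were not higher, like Nfatc1. The nuclear RNAs differed more than any of these lists. Their part in the ratios of Acp5, Tnfrsf11a and Atp6v0d2 was not tested.

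Of 13 genes whose products act in bone resorption beside Atp6v0d2 and Acp5, 10 were detected, with a median of 11.7 and 14.0 TPM. Tcirg1, which encodes the a3 subunit of the osteoclast proton pump, stood at 84.9 ± 22.2 TPM, Itgav at 42.8 ± 15.1 and the chloride transporter Clcn7 at 33.2 ± 3.39 (each SD, n = 2). These also serve lysosomes or adhesion in macrophages. The 3 that were not detected were Ctsk, Mmp9 and Car2.

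**Figure D5:**
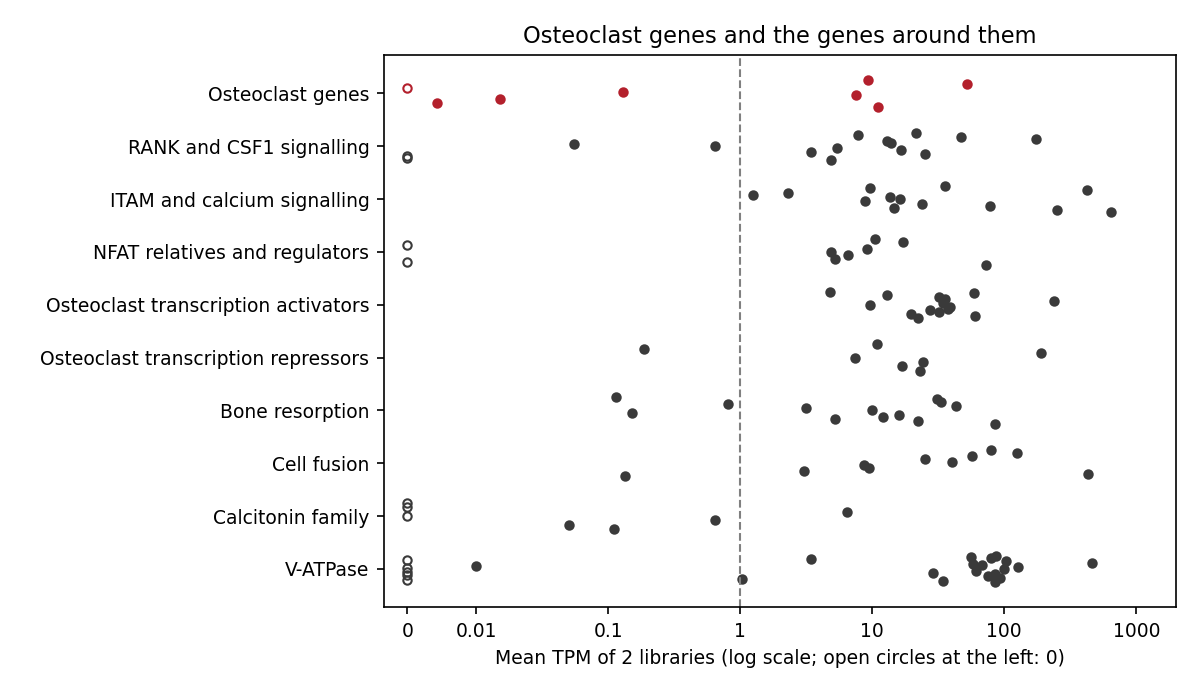
Mean TPM of 2 libraries (log axis, open circles at the left are genes at 0) for the osteoclast genes in red and for the genes of 9 related lists in grey; the dashed line is 1 TPM. Every gene of the ITAM and calcium list and of the activator list lies at or above 1 TPM, and the osteoclast genes and the other 7 lists fall on both sides.

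Oscar encodes an immunoglobulin-like receptor that binds collagen and signals through FcRγ as a costimulus to RANK. Its gene, ENSMUSG00000054594.13, lies on the reverse strand at chr7:3609813-3616157. It had 2 counts in replicate 1 and 0 in replicate 2, in both quantifications. A count of 3 would have given 0.0164 TPM in replicate 1 and 0.0248 TPM in replicate 2. The deposited posterior mean, an estimate with a prior, was 0.08 TPM in each library, with upper bounds of 0.184 and 0.198 TPM, so the level is known only to be far below 1 TPM. Nfatc1, which is known to induce Oscar, lay above those bounds in both libraries. The adaptor of Oscar, Fcer1g, was by contrast among the most abundant genes of the lists, at 430 and 416 TPM.

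Calcr encodes the calcitonin receptor, a late marker of osteoclasts through which calcitonin stops resorption. Its gene, ENSMUSG00000023964.15, lies on the reverse strand at chr6:3685680-3764714. It had 0 counts in both libraries and in both quantifications, as did 34.4% of protein-coding genes. The floor of 3 counts lay at 0.00914 and 0.0109 TPM. The posterior mean was 0.02 TPM in each library, with upper bounds of 0.0314 and 0.0371 TPM, far below the level of Atp6v0d2, Tnfrsf11a, Acp5 or Nfatc1. The microRNA genes Mir489 and Mir653, which lie within Calcr, also had 0 counts. The related receptor Calcrl, which binds calcitonin gene-related peptide and adrenomedullin, was detected at 6.49 ± 0.424 TPM (SD, n = 2). The other 6 genes of the calcitonin family list were below 1 TPM. Its partners Ramp1, Ramp3 and Ramp2 stood at 0.64, 0.11 and 0.05 TPM on average, and the peptide genes Calca, Calcb and Iapp had 0 counts in both libraries.

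The order of the 8 levels was thus resolved only in part. Atp6v0d2 lay above all others. In the first quantification Tnfrsf11a and Acp5 overlapped, as did Acp5 and Nfatc1, although Tnfrsf11a was above Acp5 within each library. In the second quantification these ranges did not overlap. Tnfrsf11a lay above Nfatc1, and Nfatc1 above Dcstamp, without overlap. Dcstamp lay above Ocstamp in the first quantification and overlapped it in the second, and Ocstamp, Oscar and Calcr could not be ordered at these counts. Of the 34 annotated transcripts of the 8 genes, 15 had 0 counts in both libraries.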

How the data were processed

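Total RNA-seq of 1 group of 2 libraries was analysed. The authors' deposited readme files name genome build mm10 and annotation M21; not given in the sources used here are the strand used in counting, the aligner and the quantifiers with versions. Per the file headers, the authors deposited expected counts (estimated fragments, not normalized) and TPM, from transcriptome alignments in a gene and a transcript table and directly from the reads in a second transcript table. The transcript share within a gene is the authors' deposited percent of TPM. The posterior SD and the TPM interval bounds are deposited scores, per the file headers; the level of that interval is not stated.

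Expected counts were rounded to whole numbers for scaling by TMM in edgeR 4.0.16 (R 4.3.3) over genes averaging at least 10 counts, with DESeq2 1.42.0 size factors as an alternative. Entries without a gene identifier, 0.251% and 0.204% of counts, were left out. Gene totals were 55596625 and 50157146 counts, and those of the second quantification, summed per gene, 65779228 and 62776976. Ratios used scaled counts with 0.5 added, with 95% Clopper-Pearson intervals for counting error, and were read against 1.5-fold for genes averaging at least 10 counts. A floor of 3 counts stands for 0. Members were joined by gene identifier. Transcripts were grouped by shared first exon or end. Calculations were tested on simulated data. Other steps ran in Python 3.11.15 (scipy 1.17.1, pandas 2.3.3, numpy 2.4.6; plots, matplotlib 3.10.9).

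A single group of 2 libraries allows no comparison of conditions and no p-value; each error is an SD. The members and lists were chosen with earlier results of these data known. Named were all members, up to 4 genes of highest mean TPM per list and, where a list had 5 or fewer below 1 TPM, those, the paralogs and relatives of Atp6v0d2, Calcr and Nfatc1, and overlapping genes; others are marked. Some genes that this rule names are not reported here. Alternatives in threshold, TPM scale, TPM estimate, scaling, added count, quantification and replicates were tried.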

Additional observations from a re-analysis of the deposited data

How the results depend on the processing

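The count of 4 detected genes was the same at 0.5 TPM, on the coding scale, with posterior mean TPM, in the second quantification and without either replicate. The count of genes over 1.5-fold apart was 1 with TMM and was the same with DESeq2 size factors, total counts, TMM over all genes with a count and no added count. It was 2 with TPM, where Dcstamp joined Acp5 through its effective length, and 0 in the second quantification, where the cause was not tested. The leading transcript was the same for 4 of 4 detected genes without either replicate and for 3 in the second quantification, which put Nfatc1-206 first; the cause was not tested. Over the 6 alternatives the ratio ran from 1.19 to 1.31 for Atp6v0d2, 1.48 to 1.61 for Acp5, 1.23 to 1.39 for Tnfrsf11a, 0.906 to 0.997 for Nfatc1 and 1.17 to 2.25 for Dcstamp, with no change of direction. Single levels moved with the scale and the estimate: Atp6v0d2 stood at 242 on the coding scale and at 22.3 TPM in the second quantification, and posterior means put Oscar at 0.08 and Calcr at 0.02 TPM. Ratios have no value without either replicate. Depth limits Dcstamp, Ocstamp, Oscar and Calcr. No paired analysis was possible because the series holds 1 group.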
